A study of Mus musculus with 18 samples.

Results

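The interferon regulatory factors are transcription factors that bind interferon-stimulated response elements in the promoters of interferon and interferon-stimulated genes. Members were the rows of the deposited count table whose symbol was Irf1, Irf2, Irf3, Irf5, Irf7, Irf8 or Irf9, which gave 7 genes, 1 row each, of 55536 genes in all. RNA was sequenced from immortalized mouse embryonic fibroblasts, connective tissue cells that grow in culture. The p65 KO line lacks the NF-κB subunit encoded by Rela, the IKK2 KO line lacks the kinase encoded by Ikbkb that activates NF-κB, and the WT line carries neither knockout. Each line was grown in DMEM with 10% FBS and was left untreated (0 min) or given TNF alpha, an inflammatory cytokine, at 10 ng/ml for 45 or 90 min. The 9 groups of line and time had 2 libraries each, called a and b below, 18 libraries in all. Each line is a separate immortalized culture, so a difference of genotype and a difference between lines cannot be told apart, and the labels do not say whether the libraries of a group came from separate cultures.

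TNF releases NF-κB dimers into the nucleus, and Irf1 is a textbook gene that NF-κB switches on. Irf1 and Irf2 recognise the same DNA element, where Irf1 mostly activates and Irf2 mostly represses. Irf3 and Irf7 are held inactive until kinases such as TBK1 phosphorylate them after virus sensing, Irf5 acts behind Toll-like receptors, Irf8 is used mainly in myeloid and B cells, and Irf9 is part of the complex that answers type I interferon.

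Library totals ran from 16708346 to 23469439 counts, and levels below are CPM, each count scaled to the effective size of its library. Rela averaged 5.68 ± 0.606 CPM in untreated p65 KO cells and 63.8 ± 0.879 CPM in untreated WT cells (SD, n = 2 each). Ikbkb averaged 43.4 ± 0.371 CPM in untreated IKK2 KO cells, 42.7 ± 0.0141 CPM in untreated p65 KO cells and 59.9 ± 0.76 CPM in untreated WT cells, and counts over a whole gene do not check a deletion of part of it. The libraries of each group differed by more than counting error, with a chi-square per gene of 1.13 to 4.27. That spread was small, with a common edgeR estimate beyond counting error of 1.93% of a gene's level. Of 9 fibroblast markers, 8 averaged at least 1 CPM over all libraries. Among these 8, Thy1 had a median of 0 and a maximum of 30.1 CPM, so only some libraries held it. Fap, the marker below 1 CPM, had at most 0.228 CPM. The summed level of the 9 was 4550 to 4700 CPM in p65 KO, 10700 to 11100 CPM in IKK2 KO and 10800 to 11100 CPM in WT libraries. Leukocyte markers summed to 1.24 to 2.23 CPM over 11 genes in every library, with Adgre1 and Cd3e at 0 in all 18. Epithelial markers summed to at most 3.23 CPM and endothelial markers to at most 1.21 CPM, both in IKK2 KO. The part of the lower fibroblast marker level of p65 KO in the differences between lines below was not tested. In RNA from whole cultures, fewer cells that express a gene and less of its RNA per cell cannot be told apart.

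Promoters are shown for the 3 members called after both 45 and 90 min of TNF in WT, which were Irf1, Irf2 and Irf5. Each line gives the 250 bases before the RefSeq start (for Irf1 the first of 2), from the plus strand, 5′ to 3′, in GRCm38.p6. Capitals mark matches, on either strand, to the NF-κB (κB) consensus, to the STAT element TTCNNNGAA or to the response element core, which is GAAA, any 2 bases and GAAA again. These 3 motifs were found in 3.9%, 7.02% and 2.98% of 32851 mouse promoter windows of 250 bases. No matches of different motifs overlapped in these windows.
Irf1, chr11:53769764-53770013: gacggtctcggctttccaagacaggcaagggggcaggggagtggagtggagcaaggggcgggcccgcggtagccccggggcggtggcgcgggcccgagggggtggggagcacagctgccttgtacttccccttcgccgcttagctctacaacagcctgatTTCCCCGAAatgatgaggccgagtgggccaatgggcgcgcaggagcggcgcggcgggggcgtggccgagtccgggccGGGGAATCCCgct
Irf2, chr8:46739495-46739744: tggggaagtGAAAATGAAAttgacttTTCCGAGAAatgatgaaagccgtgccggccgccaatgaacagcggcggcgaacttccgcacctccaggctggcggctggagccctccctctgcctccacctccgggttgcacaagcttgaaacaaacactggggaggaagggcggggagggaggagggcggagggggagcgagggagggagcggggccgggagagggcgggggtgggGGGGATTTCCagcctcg
Irf5, chr6:29526375-29526624: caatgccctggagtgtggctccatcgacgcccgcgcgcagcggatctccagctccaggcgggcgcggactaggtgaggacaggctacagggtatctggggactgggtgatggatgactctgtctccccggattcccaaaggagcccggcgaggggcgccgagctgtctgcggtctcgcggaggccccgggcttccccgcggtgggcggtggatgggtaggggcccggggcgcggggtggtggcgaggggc

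The first of 2 Irf1 windows, printed above, held a κB match, GGGGAATCCC, 13 to 4 bases before its start, and a STAT match 90 to 82 bases before it. The second Irf1 window, chr11:53770223-53770472, held no match. The Irf2 window held a κB match, GGGGATTTCC, 17 to 8 bases before the start, a STAT match 224 to 216 bases before it and a response element core, GAAAATGAAA, 241 to 232 bases before it. The Irf5 window and the windows of Irf3, Irf7 and Irf9 held none of these letters, and the first Irf8 window held 2 STAT matches. All 7 members had at least 1 window in the RefSeq table, 10 windows in all. A match describes the letters in a window and was not tested as a binding site.

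Irf1 (ENSMUSG00000018899, GRCm38 chromosome 11, 53770014 to 53778374, plus strand) encodes the factor that mostly activates at the element it shares with Irf2. In p65 KO cells it had 14.5 and 14.2 CPM at 0 min, 12.9 and 13.4 CPM at 45 min and 12.8 and 13.8 CPM at 90 min. In IKK2 KO cells it had 15.5 and 15.8 CPM at 0 min, 41.4 and 41.2 CPM at 45 min and 21.7 and 21.1 CPM at 90 min. In WT cells it had 4.51 and 5.99 CPM at 0 min, 117 and 117 CPM at 45 min and 16.2 and 15.6 CPM at 90 min. Both 45 min WT libraries stood above all other libraries, both untreated WT libraries stood below all others, and the 6 p65 KO libraries lay within 12.8 to 14.5 CPM.

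After 45 min, Irf1 rose in WT by 4.45 ± 0.07 on the log2 scale (SE, edgeR adjusted p = 3.1e-40), 21.9-fold, which ranked 19 of 16322 genes tested. It rose in IKK2 KO cells by 1.40 ± 0.07 (adjusted p = 2.9e-20), 2.64-fold. In p65 KO cells the difference was -0.12 ± 0.08 (adjusted p = 0.57). The difference of 90 from 45 min was -0.95 ± 0.06 in IKK2 KO cells (adjusted p = 5e-16) and -2.87 ± 0.05 in WT (adjusted p = 6.2e-36), and Irf1 was still above the untreated level at 90 min in IKK2 KO cells (0.45 ± 0.08, adjusted p = 8.3e-05) and in WT (1.58 ± 0.10, adjusted p = 1.1e-16).

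The 45 min response of Irf1 was smaller in p65 KO than in WT by a log2 difference of -4.58 ± 0.11 (edgeR adjusted p = 4.9e-31) and smaller in IKK2 KO than in WT by -3.05 ± 0.11 (adjusted p = 2.2e-24). It was larger in IKK2 KO than in p65 KO cells by 1.52 ± 0.11 (adjusted p = 1.5e-14). At 90 min these differences were -1.70 ± 0.13 (adjusted p = 1e-13), -1.13 ± 0.13 (adjusted p = 3.1e-08) and 0.57 ± 0.11 (adjusted p = 0.0019). Untreated, Irf1 was 2.69-fold higher in p65 KO (log2 1.43 ± 0.10, adjusted p = 6.2e-17) and 2.93-fold higher in IKK2 KO (1.55 ± 0.10, adjusted p = 2.3e-17) than in WT. The untreated knockout lines differed from each other by 0.12 ± 0.08 (IKK2 KO minus p65 KO, adjusted p = 0.18). The differences between responses share these unequal baselines, and the levels reached at 45 min were in the order WT, IKK2 KO, p65 KO, with no overlap of libraries. At 90 min the order was IKK2 KO (mean 21.4 CPM), WT (15.9 CPM), p65 KO (13.3 CPM), again with no overlap. The smaller 90 min response of IKK2 KO than of WT thus went with a higher level.

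**Figure D1:**
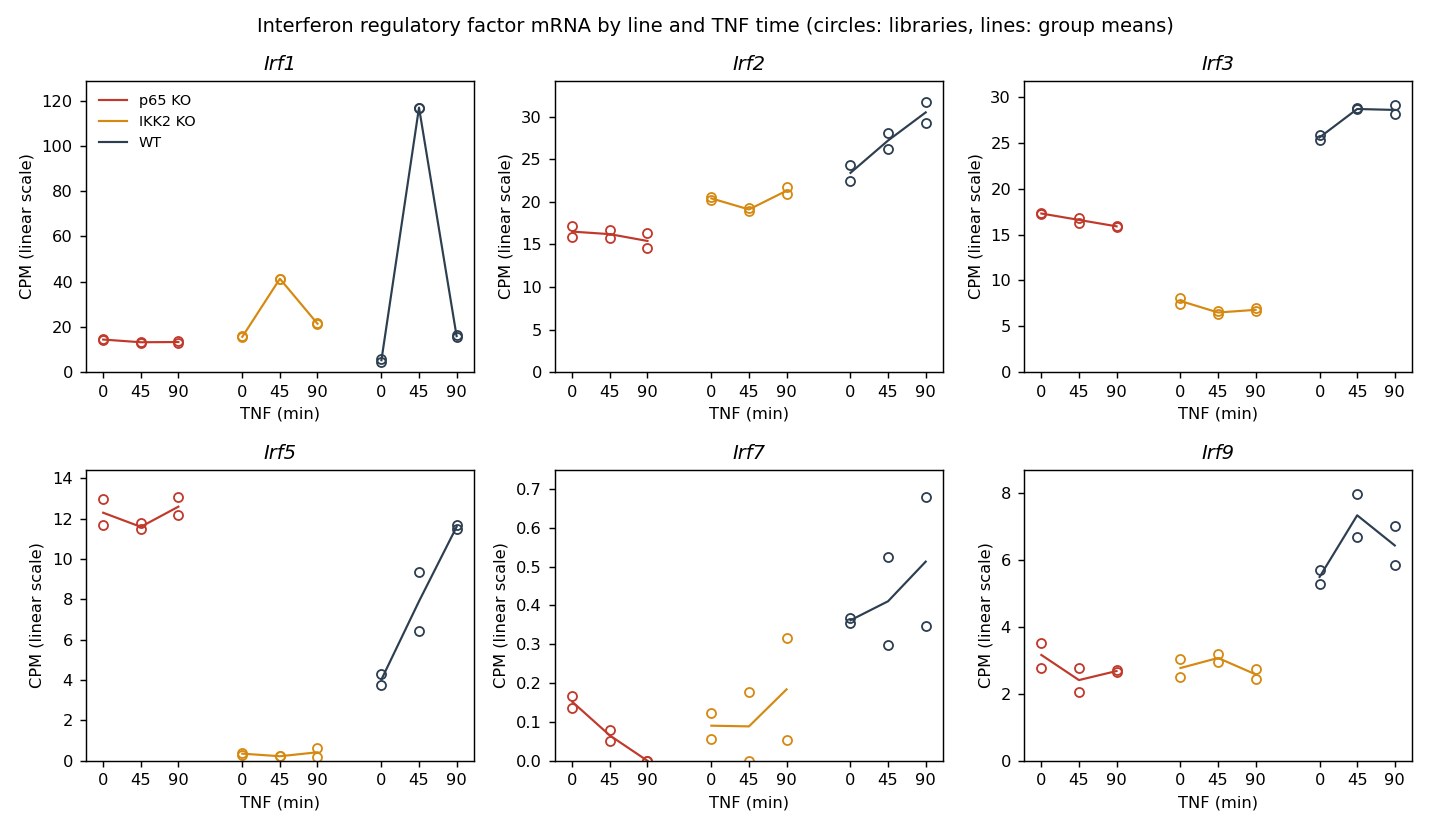
Level of 6 interferon regulatory factors in CPM (vertical axes, linear, from 0) against TNF time in min, with circles for the 18 libraries and lines through the means of 2. Irf1 was highest at 45 min, at a mean of 41.3 CPM in IKK2 KO and 117 CPM in WT, while Irf5 in WT was highest at 90 min, at 11.6 CPM.

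Irf2 (ENSMUSG00000031627, chromosome 8, 46739732 to 46847458, plus strand) encodes the factor that mostly represses at the sites Irf1 uses. It had 17.1 and 15.9, 15.7 and 16.7, and 14.6 and 16.3 CPM in p65 KO cells at 0, 45 and 90 min. It had 20.2 and 20.6, 19.3 and 18.9, and 21.7 and 20.9 CPM in IKK2 KO cells at these times. In WT cells it had 24.3 and 22.4, 26.2 and 28.1, and 31.7 and 29.3 CPM. The ranges of the lines did not overlap over their 6 libraries each, and the WT libraries of the 3 times did not overlap either.

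In WT, Irf2 rose by 0.22 ± 0.07 on the log2 scale after 45 min (SE, edgeR adjusted p = 0.022) and by 0.39 ± 0.06 after 90 min (adjusted p = 1.5e-05), a 1.31-fold level at 90 min. The difference between 90 and 45 min was 0.17 ± 0.06 (adjusted p = 0.072), not called. The 45 min call was lost in DESeq2 (adjusted p = 0.23), without untreated WT library b (0.34) and without 45 min WT library b (0.23). In the knockout lines the differences from untreated lay between -0.10 and 0.06 at both times, none called. The 90 min response was smaller in p65 KO than in WT by a difference of -0.49 ± 0.10 (adjusted p = 0.00085), and the IKK2 KO minus WT differences of -0.32 ± 0.10 at 45 min and -0.33 ± 0.10 at 90 min had adjusted p = 0.074 and 0.079. Without untreated WT library a, the 45 min one was called (adjusted p = 0.048). Untreated, Irf2 was lower in p65 KO than in WT (-0.50 ± 0.07, adjusted p = 3.6e-08) and lower in IKK2 KO than in WT (-0.19 ± 0.07, adjusted p = 0.018). The IKK2 KO call was lost in DESeq2 (adjusted p = 0.052) and in 3 of 4 fits with a library left out (0.053 to 0.16).

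Irf3 (ENSMUSG00000003184, chromosome 7, 44997648 to 45002848, plus strand) encodes the factor that starts interferon beta transcription once TBK1 phosphorylates it, and its activity is known to be set by the protein rather than the RNA. In p65 KO cells it had 17.3 and 17.4, 16.3 and 16.8, and 15.9 and 15.8 CPM at 0, 45 and 90 min. In IKK2 KO cells it had 8.10 and 7.43, 6.32 and 6.68, and 6.62 and 6.97 CPM. In WT cells it had 25.9 and 25.3, 28.8 and 28.7, and 28.2 and 29.1 CPM. The line separated these libraries at all times, with WT highest, p65 KO in the middle and IKK2 KO lowest, and no TNF time gave a call in any line.

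Untreated, Irf3 was lower in p65 KO than in WT by a log2 difference of -0.56 ± 0.06 (SE, edgeR adjusted p = 1.2e-10), 0.679-fold. It was lower in IKK2 KO than in WT by -1.72 ± 0.08 (adjusted p = 2.2e-22), 0.304-fold. The TNF differences in WT were 0.17 ± 0.06 at 45 min (adjusted p = 0.053) and 0.16 ± 0.06 at 90 min (adjusted p = 0.075), and those in the knockout lines ranged over -0.26 to -0.06. The 90 min response of p65 KO minus WT was -0.29 ± 0.09 (adjusted p = 0.048), and this call was lost in all 12 alternatives run on it, with adjusted p of 0.054 to 0.40. Bcl2l12, on the opposite strand, shares 88 exonic bases with Irf3 and was also lower untreated, by -0.56 ± 0.14 in p65 KO and -1.12 ± 0.16 in IKK2 KO against WT. The strand setting of the counting is not given in the sources used here, so reads in the shared bases cannot be told apart.

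Irf7 (ENSMUSG00000025498, chromosome 7, 141262706 to 141266481, minus strand) encodes the interferon-induced factor that amplifies interferon production. It had at most 13 counts in any library. Counts at 0, 45 and 90 min were 3 and 4, 1 and 2, and 0 and 0 in p65 KO cells, 1 and 2, 3 and 0, and 6 and 1 in IKK2 KO cells, and 7 and 9, 6 and 9, and 7 and 13 in WT cells. No TNF response of Irf7 was called in any line. Phrf1, on the opposite strand, shares 45 exonic bases with it. Against 16 counts in untreated WT, the 3 counts in untreated IKK2 KO gave a depth-scaled ratio of 0.245 (exact 95% interval for counting error 0.0458 to 0.857) and the 7 counts in untreated p65 KO a ratio of 0.419 (0.146 to 1.08). The IKK2 KO difference was called (edgeR adjusted p = 0.033), and the call was lost in DESeq2 (0.11) and without any 1 of the 4 libraries (0.059 to 0.19).

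Irf5 (ENSMUSG00000029771, chromosome 6, 29526625 to 29541871, plus strand) encodes a factor that drives inflammatory cytokine genes behind MYD88, chiefly in macrophages and B cells. In p65 KO cells it had 13.0 and 11.7, 11.8 and 11.5, and 12.2 and 13.1 CPM at 0, 45 and 90 min. In IKK2 KO cells it had 0.399 and 0.31, 0.236 and 0.215, and 0.21 and 0.633 CPM, from 4 to 12 counts a library. In WT cells it had 3.75 and 4.31, 9.36 and 6.46, and 11.7 and 11.5 CPM. The p65 KO libraries lay at 11.5 to 13.1 CPM at all times and overlapped the 90 min WT libraries, the IKK2 KO libraries were below all others, and both 45 min WT libraries stood apart from each other.

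In WT, Irf5 rose by 0.98 ± 0.15 on the log2 scale after 45 min (SE, edgeR adjusted p = 1.5e-06) and by 1.51 ± 0.13 after 90 min (adjusted p = 3.5e-12), 2.85-fold. From 45 to 90 min it rose by 0.53 ± 0.12 (adjusted p = 0.00096), a value of 0.84 without 45 min WT library a and of 0.31 (adjusted p = 0.12) without library b. In p65 KO cells the differences were -0.08 ± 0.10 at 45 min and 0.04 ± 0.10 at 90 min, and the responses were smaller than in WT by -1.06 ± 0.18 (adjusted p = 2.7e-05) and -1.48 ± 0.17 (adjusted p = 9.6e-09). In IKK2 KO cells the counts were too few to separate the response from that of WT (-1.63 ± 0.70 at 45 min, adjusted p = 0.24, and -1.27 ± 0.62 at 90 min, adjusted p = 0.42). Untreated, Irf5 was 3.03-fold higher in p65 KO than in WT (1.6 ± 0.13, adjusted p = 5.3e-15) and lower in IKK2 KO than in WT by -3.49 ± 0.32 (adjusted p = 7.1e-13), 0.0891-fold. Tnpo3, on the opposite strand, shares 411 exonic bases with Irf5, and its TNF differences in WT were 0.01 ± 0.03 and 0.03 ± 0.03. Untreated Tnpo3 was higher in p65 KO by 0.75 ± 0.03 and in IKK2 KO by 0.32 ± 0.03 against WT.

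Irf8 (ENSMUSG00000041515, chromosome 8, 120736358 to 120756694, plus strand), the family member of myeloid and B cells, had 0 counts in all 18 libraries, where 3 counts a library would be 0.117 to 0.186 CPM. That limit covers counting error only.

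Irf9 (ENSMUSG00000002325, chromosome 14, 55603571 to 55610030, plus strand) encodes the DNA-binding part of the complex that answers type I interferon. It had 2.78 and 3.53, 2.04 and 2.78, and 2.70 and 2.66 CPM in p65 KO cells at 0, 45 and 90 min. It had 2.51 and 3.03, 2.95 and 3.18, and 2.73 and 2.43 CPM in IKK2 KO cells. In WT cells it had 5.27 and 5.71, 6.69 and 7.98, and 5.84 and 7.01 CPM. All 6 WT libraries stood above the 12 knockout libraries, and the 6 knockout groups overlapped at each step of their order.

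Untreated, Irf9 was lower in p65 KO than in WT by a log2 difference of -0.79 ± 0.15 (SE, edgeR adjusted p = 8.1e-06) and lower in IKK2 KO than in WT by -1.0 ± 0.17 (adjusted p = 1.6e-06). In WT it rose by 0.40 ± 0.13 after 45 min (adjusted p = 0.033), a call lost in DESeq2 (0.35) and without untreated WT library a (0.18), untreated WT library b (0.079) or 45 min WT library b (0.35). The 90 min difference was 0.22 ± 0.13 (adjusted p = 0.40). The 45 min response of p65 KO minus WT was -0.78 ± 0.22 (adjusted p = 0.022), lost in DESeq2 (0.16) and in 4 of 8 fits with a library left out (0.062 to 0.28). Rnf31 shares 123 exonic bases with Irf9 on the same strand, had no TNF call in WT, and was lower untreated by -0.57 ± 0.10 in p65 KO and -0.74 ± 0.11 in IKK2 KO against WT.

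**Figure D2:**
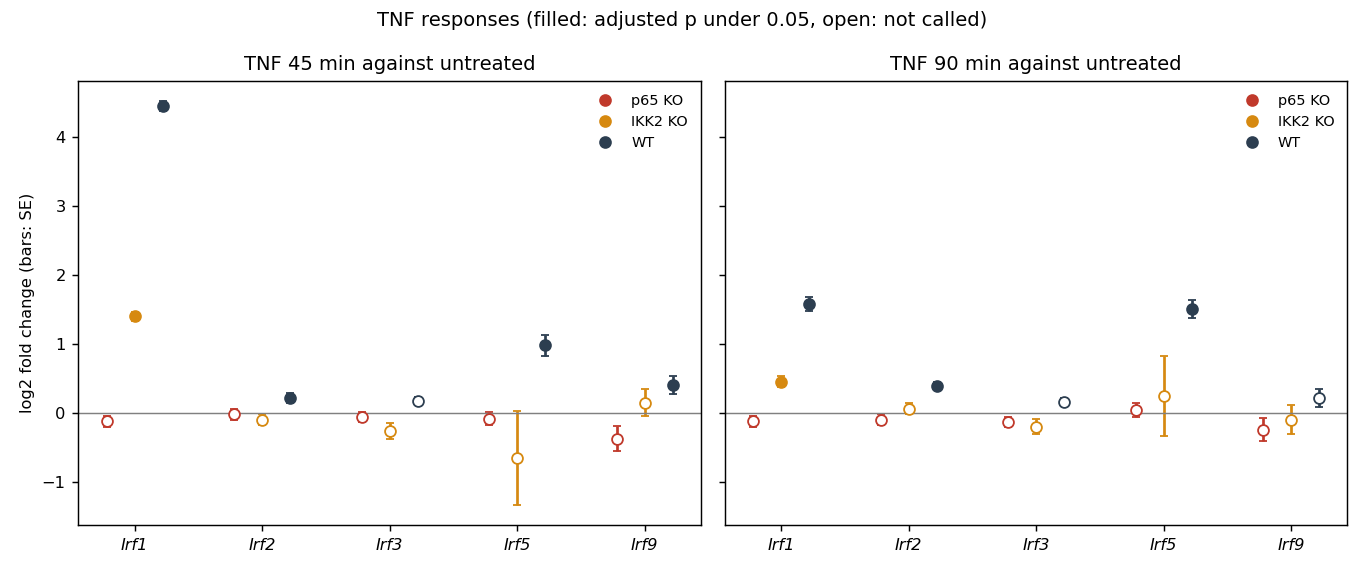
Log2 fold change (vertical axis) after TNF against untreated for 5 members in 3 lines, at 45 min on the left and 90 min on the right, with SE as bars and filled points for adjusted p under 0.05. Irf1 in WT stood at 4.45 at 45 min and 1.58 at 90 min, Irf5 in WT at 0.98 and 1.51, and every p65 KO point was open.

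Counted over the family, 6 of 7 members passed the filter on low counts and were tested. After 45 min of TNF, 0 of 6 were called in p65 KO cells, where 1.66% of all genes tested were called, and Irf1 alone, 1 of 6, in IKK2 KO cells, where 8.76% were. In WT, Irf1, Irf2, Irf5 and Irf9, 4 of 6, were called, against 12.2% of all genes. DESeq2 called 2 of them, beside 1114 calls over the 16322 genes fitted. After 90 min, 0 of 6 were called in p65 KO (6.48% of all genes), 1 of 6 in IKK2 KO (4.48%) and 3 of 6 in WT (9.32%). For the 0 counts in p65 KO, edgeR gave 1 member at an unadjusted p under 0.05 at 45 min (Irf9) and 1 at 90 min (Irf7), both lower, and DESeq2 gave 0 at both times. Over all genes DESeq2 called 155 and 435 in p65 KO at these times. No share of all genes was computed at an unadjusted p under 0.05, so such counts, here and for the lists below, have no background. Between 90 and 45 min, 0 of 6 were called in p65 KO (2.73% of all genes, with 0 at an unadjusted p under 0.05 in edgeR and 0 in DESeq2), 1 in IKK2 KO (15.7%) and 2 in WT (14.3%). Over all genes DESeq2 called 174 in p65 KO between these times.

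For the responses of different lines, 3 of 6 members differed between p65 KO and WT at 45 min (7.08% of all genes) and 4 of 6 at 90 min (5.39%), all smaller in p65 KO. DESeq2 called 2 members at 45 min and 3 at 90 min, beside 691 and 489 calls over all genes. DESeq2 did not give every member an adjusted p in every comparison, so its counts have no fixed number of members beside them. Between IKK2 KO and WT, 1 of 6 differed at 45 min (4.86%) and at 90 min (2.35%), in each case Irf1. Between IKK2 KO and p65 KO, Irf1 was again the 1 of 6 called at 45 min (5.91%) and at 90 min (1.67%). Comparisons of 1 line with both others share its libraries.

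Untreated, 5 of 6 members were called between p65 KO and WT, beside 80.8% of all genes. Between IKK2 KO and WT 6 of 6 were called, beside 74.3%, and between IKK2 KO and p65 KO 3 of 6, beside 72.4%. In these 3 comparisons DESeq2 called 5, 4 and 3 members, beside 12060, 10784 and 10709 calls over all genes. These shares lie near the background, so the counts say nothing particular to the family. The directions were mixed: Irf1 was higher than WT in both knockout lines, Irf2, Irf3 and Irf9 were lower in both, and Irf5 was higher in p65 KO and lower in IKK2 KO.

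**Figure D3:**
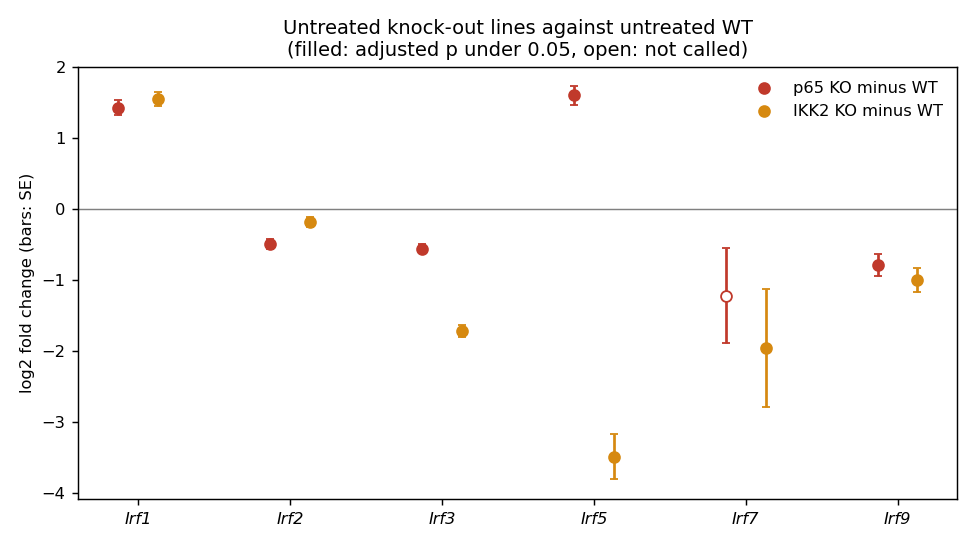
Log2 difference of untreated knockout lines from untreated WT (vertical axis) for 6 members, with SE as bars and filled points for adjusted p under 0.05. Irf1 stood at 1.43 in p65 KO and 1.55 in IKK2 KO, and Irf5 at 1.6 in p65 KO and -3.49 in IKK2 KO.

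Levels of different members were compared per length, as RPKM, the CPM divided by the length of the exons in kilobases. That length joined the exons of all annotated transcripts, from 2905 bases for Irf5 to 7396 for Irf2. It can hold bases that are intron in some transcripts, to a different degree per gene. The shares below depend on it, and other lengths were not tried. The summed RPKM of the 7 members was 15.8 ± 0.363, 14.8 ± 0.305 and 14.9 ± 0.547 in p65 KO cells at 0, 45 and 90 min (SD, n = 2 each). It was 9.61 ± 0.023, 15.5 ± 0.0111 and 10.9 ± 0.113 in IKK2 KO cells and 14.4 ± 0.149, 45.6 ± 0.344 and 21.8 ± 0.0321 in WT cells. The sum was highest at 45 min in IKK2 KO and in WT, with Irf1 as the largest part.

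Irf3 held the largest share of the summed RPKM in untreated p65 KO (32.0% ± 0.818) and in untreated WT (51.6% ± 1.36), while Irf1 did in untreated IKK2 KO (41.0% ± 0.637). At 45 min the Irf1 share was 22.4% ± 0.152 in p65 KO, 66.9% ± 0.212 in IKK2 KO and 64.5% ± 0.462 in WT. At 90 min it was 22.4% ± 0.375 in p65 KO, 49.3% ± 0.589 in IKK2 KO and 18.4% ± 0.502 in WT. In WT at 90 min, Irf1, Irf2 and Irf5 held close shares of 18.4%, 18.9% ± 1.11 and 18.3% ± 0.21, after Irf3 with 38.2% ± 0.835. Irf5 held 27.0% ± 1.31 in untreated p65 KO, 1.27% ± 0.23 in untreated IKK2 KO and 9.62% ± 0.84 in untreated WT.

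**Figure D4:**
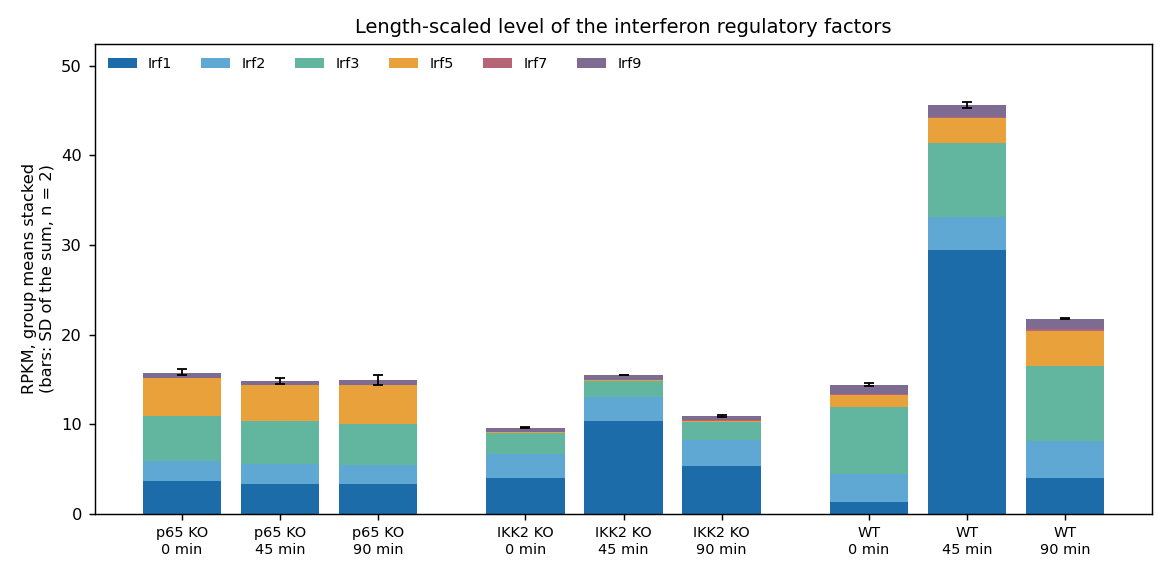
Length-scaled level (RPKM, vertical axis, from 0) of 6 members stacked as group means for the 9 groups, with bars for the SD of the sum (n = 2). Irf1 made up 66.9% of the sum in IKK2 KO and 64.5% in WT at 45 min, and the 3 p65 KO columns stood at 14.8 to 15.8 RPKM.

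The pathway around the family was read from 4 lists, with counts in edgeR at adjusted p under 0.05. Over all genes tested, 1.17% in p65 KO, 3.33% in IKK2 KO and 5.73% in WT were higher after 45 min, and 4.06%, 3.36% and 5.81% after 90 min. In either direction, lower genes included, 1.66%, 8.76% and 12.2% were called after 45 min, and 6.48%, 4.48% and 9.32% after 90 min. Single lower calls in a list are not read as a result about that list. Of 15 genes for sensors and activating kinases, 0 were called after 45 min in p65 KO, 1 lower in IKK2 KO and 6 higher in WT. After 90 min, 1 was higher in p65 KO, 2 in IKK2 KO and 4 in WT. The p65 KO call was Tank (0.17 ± 0.05, adjusted p = 0.019), lost in DESeq2 (0.14) and in 3 of 4 fits with a library left out (0.095 to 0.29). The median log2 change of this list in WT was 0.21 at 45 min and 0.14 at 90 min, beside 0.01 and 0.00 over all genes. Tank, an adaptor of the kinases that phosphorylate Irf3, rose to 98.1 ± 2.69 CPM in WT at 45 min, against 43.5 ± 0.166 CPM untreated (1.17 ± 0.04, adjusted p = 3.6e-25), and this response was smaller in p65 KO by -1.26 ± 0.07 and in IKK2 KO by -1.16 ± 0.08 than in WT (adjusted p = 3.5e-19 and 3.5e-15). Ikbke, one of those kinases, rose by 0.62 ± 0.10 (adjusted p = 9.1e-06) in WT at 45 min. Ddx58, the RNA sensor RIG-I, rose by 0.91 ± 0.10 (adjusted p = 5.3e-09) and Traf3, another adaptor on the way to Irf3, by 0.79 ± 0.04 (adjusted p = 2e-19) in WT at 90 min.

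Of 13 genes for interferons and receptor signalling, 0 were called after 45 min in p65 KO, 1 was higher in IKK2 KO and 7 were higher in WT, and after 90 min 1, 3 and 9 were higher. The IKK2 KO call at 45 min was Jak1, a receptor kinase (0.10 ± 0.03, adjusted p = 0.032), and it was lost in DESeq2 (0.098), with no low-count filter (0.077), with only the compared groups (0.11) and without any 1 of the 4 libraries (0.056 to 0.20). The medians in WT were 0.16 and 0.26. Ifngr1, a chain of the interferon gamma receptor, rose by 0.57 ± 0.06 (adjusted p = 2e-09) and its partner chain Ifngr2 by 0.54 ± 0.04 (adjusted p = 4.5e-13) in WT at 90 min. Socs1, the feedback inhibitor of the receptor kinases, rose at 90 min in all 3 lines, by 0.56 ± 0.10 in p65 KO, 0.30 ± 0.08 in IKK2 KO and 0.71 ± 0.10 in WT (adjusted p = 7e-05, 0.017 and 4e-07), with the IKK2 KO call lost in DESeq2 (0.19), without untreated IKK2 KO library a (0.24) and without 90 min IKK2 KO library a (0.18). Stat2, the partner of Irf9, rose by 0.50 ± 0.12 in WT at 45 min (adjusted p = 0.0028), a call lost in DESeq2 (0.10) and in 1 of 4 fits with a library left out (0.072). Its 90 min value of 0.37 ± 0.12 (adjusted p = 0.048) was lost in all 4 other settings and in 3 of 4 fits with a library left out (up to 0.48).

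Of 7 partners and co-regulators, 0 were called after 45 min in p65 KO, 1 was higher and 1 lower in IKK2 KO, and 1 was lower in WT, and after 90 min 1 was lower in p65 KO and 1 higher in WT, with 0 called in IKK2 KO (3 at an unadjusted p under 0.05, 0 in DESeq2). The lower call in p65 KO was Irf2bp2 (-0.17 ± 0.05, adjusted p = 0.023), lost in DESeq2 (0.051) and without any 1 of the 4 libraries (0.078 to 0.20). The lower call in IKK2 KO was Irf2bp1, a relative of Irf2bp2 (-0.26 ± 0.06, adjusted p = 0.0057), lost in DESeq2 (0.06), without untreated IKK2 KO library b (0.23) and without 45 min IKK2 KO library a (0.068). Irf2bp2, a corepressor that binds Irf2, fell in WT to 160 ± 4.35 CPM at 45 min, against 228 ± 3.66 CPM untreated (-0.51 ± 0.04, adjusted p = 1.2e-15), and was back at 220 ± 1.49 CPM at 90 min. Untreated, Irf2bp2 had 57.3 ± 0.549 CPM in p65 KO, 143 ± 3.81 CPM in IKK2 KO and 228 ± 3.66 CPM in WT, and the differences from WT were -1.99 ± 0.04 and -0.68 ± 0.04 (adjusted p = 2e-36 and 1.3e-20). Trim21, a ubiquitin ligase known to act on several family members, rose in WT to 3.66 ± 0.0734 CPM at 90 min, against 1.28 ± 0.227 CPM untreated (1.5 ± 0.20, adjusted p = 2.3e-07). Batf3, a partner of Irf8 in dendritic cells, averaged 2.66 ± 0.177 CPM in untreated p65 KO and had 0 counts in untreated IKK2 KO and in untreated WT.

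Of 28 interferon and family target genes, 0 were called after 45 min in p65 KO, 3 were higher and 1 lower in IKK2 KO, and 7 were higher in WT. After 90 min 3 were higher in p65 KO, 3 in IKK2 KO and 14 in WT, with 1 lower in WT. Both lower calls were Ifit2, by -0.28 ± 0.06 in IKK2 KO at 45 min (edgeR adjusted p = 0.00059) and by -0.32 in WT at 90 min. Isg15, Ifit3, Tap1 and Eif2ak2 had no call against untreated in any line at either time. The medians in WT were 0.20 and 0.39, and those in p65 KO 0.03 and 0.02. Cxcl10, a chemokine named for its induction by interferon, averaged 1.84 ± 0.43 CPM in untreated p65 KO and 4.92 ± 0.408 CPM at 90 min, 6.63 ± 0.428 CPM in untreated IKK2 KO and 21.3 ± 1.27 CPM at 90 min, and 0.128 ± 0.109 CPM in untreated WT and 6.39 ± 0.289 CPM at 90 min. It rose in each line at 90 min (1.43 ± 0.17, 1.69 ± 0.11 and 5.49 ± 0.30, adjusted p = 7.2e-08, 4.1e-16 and 1.3e-18). The untreated WT level lay near that of 3 counts a library, and the WT value was 4.92 without untreated WT library a and 6.81 without library b. Xaf1, an interferon-induced gene of apoptosis, rose in WT by 0.98 ± 0.20 at 90 min (adjusted p = 0.00037). Ifit1, an antiviral RNA-binding protein gene, rose in WT by 0.77 ± 0.26 at 90 min (adjusted p = 0.047), a call lost in DESeq2 (0.099), with its size factors in edgeR (0.051) and in 3 of 4 fits with a library left out (0.077 to 0.42). Vcam1, an adhesion molecule gene known as a target of Irf1 and NF-κB, averaged 17.4 ± 0.564 CPM in untreated p65 KO, 126 ± 0.333 CPM in untreated IKK2 KO and 2.68 ± 0.0792 CPM in untreated WT. In WT it rose to 84.7 ± 1.42 CPM at 45 min (4.98 ± 0.08, edgeR adjusted p = 1.5e-39) and stood at 82.2 ± 1.45 CPM at 90 min. Its 45 min response was smaller in p65 KO by -4.81 ± 0.12 and in IKK2 KO by -4.85 ± 0.09 than in WT (adjusted p = 1.4e-31 and 1.4e-35). These differences share the unequal untreated levels. At 45 min Vcam1 stood at 19.5 ± 0.295 CPM in p65 KO, below WT, and at 137 ± 5.46 CPM in IKK2 KO, above WT. At 90 min Vcam1 had risen by 0.58 ± 0.06 in p65 KO and 0.26 ± 0.03 in IKK2 KO (adjusted p = 3.6e-09 and 2.8e-07). Ifit1 averaged 0.542 ± 0.0561 CPM in untreated p65 KO, 12.4 ± 0.959 CPM in untreated IKK2 KO and 1.32 ± 0.22 CPM in untreated WT, and IKK2 KO was above WT by 3.21 ± 0.17 (adjusted p = 1.6e-20).

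For the lists with 0 calls in p65 KO at 45 min, 0 sensor, 2 receptor, 2 partner and 2 target genes had an unadjusted p under 0.05 in edgeR. DESeq2 called 0 in each, beside 155 calls over all genes. The share of all genes at that unadjusted p was not computed. In WT, DESeq2 called 4 sensor, 4 receptor and 4 target genes at 45 min, against 6, 7 and 7 in edgeR, and 3, 6 and 9 at 90 min, against 4, 9 and 15. Over the 16322 genes fitted, DESeq2 called 1114 and 844 in WT at these times, against 1988 and 1521 in edgeR. In IKK2 KO, DESeq2 called 1 sensor, 0 receptor, 1 partner and 3 target genes at 45 min, against 1, 1, 2 and 4 in edgeR, and 2, 2, 0 and 3 at 90 min, against 2, 3, 0 and 3. The calls over all genes in IKK2 KO were 811 and 408, against 1430 and 732. In p65 KO at 90 min, DESeq2 called 0, 1, 0 and 3, against 1, 1, 1 and 3, beside 435 against 1058 over all genes.

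Untreated, many listed genes differed between lines, where 80.8% of all genes differed between p65 KO and WT and 74.3% between IKK2 KO and WT. Against WT, 3 sensor genes were higher and 9 lower in p65 KO, and 3 higher and 8 lower in IKK2 KO. Tlr3, the receptor for double-stranded RNA upstream of Irf3, had 1.36 ± 0.275 CPM in p65 KO, 1.6 ± 0.0748 CPM in IKK2 KO and 7.80 ± 0.698 CPM in WT, and Ikbke had 2.12 ± 0.233, 2.38 ± 0.307 and 8.44 ± 0.263 CPM. Both were lower in each knockout line (edgeR adjusted p = 8.2e-18 and 2.1e-15 for Tlr3, 3.9e-16 and 6.9e-14 for Ikbke). Of the receptor genes, 5 were higher and 7 lower in p65 KO, and 2 higher and 8 lower in IKK2 KO, with Ifngr2 at 21.4 ± 0.543, 14.1 ± 1.74 and 51.9 ± 0.147 CPM in p65 KO, IKK2 KO and WT. Of the partner genes, 5 were higher and 1 lower in p65 KO, and 3 higher and 2 lower in IKK2 KO. Of the target genes, 11 were higher and 11 lower in p65 KO, and 15 higher and 7 lower in IKK2 KO. Trim25, a ubiquitin ligase of the RIG-I pathway, had 0 counts in untreated p65 KO, 46.9 ± 1.42 CPM in IKK2 KO and 30.2 ± 0.122 CPM in WT.

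**Figure D5:**
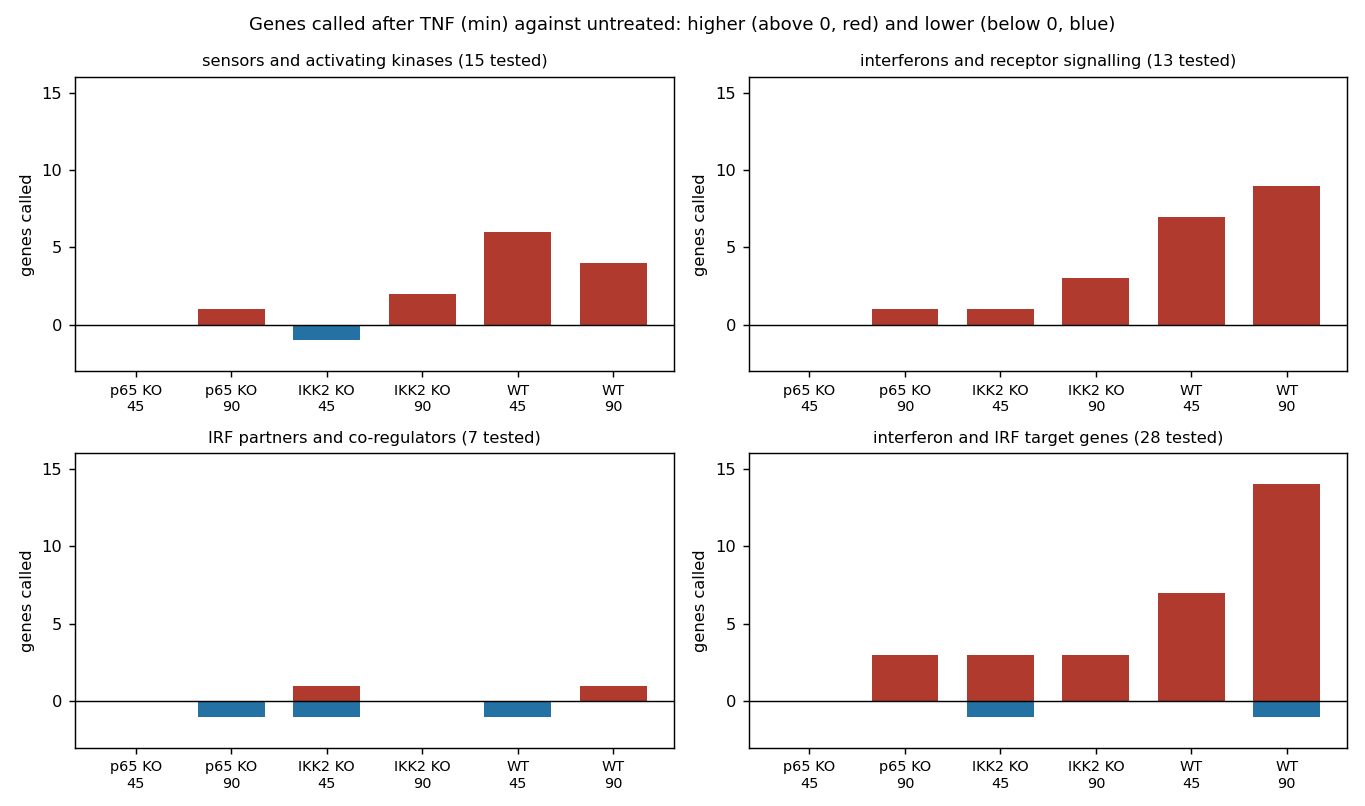
Number of genes called after TNF against untreated (vertical axis, higher above 0 in red, lower below 0 in blue) in 4 pathway lists, for 3 lines at 45 and 90 min. No list had a call in p65 KO at 45 min, and the target list reached 14 higher and 1 lower in WT at 90 min.

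The genes with the most similar pattern over the 18 libraries were found by Pearson's r of log2 CPM among genes of at least 2 CPM on average, with no test, since libraries of a line share its baseline. For Irf1 these were Tnfaip3 (0.957) and Nfkbia (0.938), both feedback inhibitors of NF-κB, and Fam133b (0.888). For Irf2 they were Znrf1 (0.973), Parp9 (0.968) and Pxdn (0.965), and for Irf3 Arhgef17, Slco1a5 and Sema3a (0.996 each). For Irf5 they were Abhd1 (0.994), Tagln2 (0.988) and Tmem74 (0.985), and for Irf9 Per3 (0.965), Brinp3 (0.965) and Sel1l (0.963). Irf7, at its low counts, gave Exoc7 (0.899), Ndufaf3 (0.896) and Dync2li1 (0.868).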

How the data were processed

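RNA was measured in 18 libraries, 2 for each of 9 groups of line and TNF time. The authors deposited unnormalized counts for 55536 genes, which were taken to be expected counts because 31.8% of non-zero values were fractional (Irf2 in 5 of 18 libraries, the other members in none). No source used here names that measure or says how the fractions arose. The submitters' processing notes list the build GRCm38, the aligner HISAT2, featureCounts (Subread 1.6.2), FastQC 0.11.8, Trimmomatic and edgeR 3.26.4, and per the labels' protocols libraries were made from total RNA with a directional kit. Not given in the sources used here are the annotation release, whether strand was used in counting and how multi-mapped reads were treated. Columns name the group only and carry a code that no label holds, so libraries a and b follow the column order.

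Values were rounded to whole counts, filtered with filterByExpr (16322 genes) and scaled by TMM. The robust quasi-likelihood test of edgeR 4.0.16 in R 4.3.3 was fitted over all 18 libraries with 1 coefficient a group, for 18 comparisons, with Benjamini-Hochberg adjustment over all genes and a threshold of 0.05. SE was the log2 change divided by the square root of F. The test was tried on simulated data first. RPKM used exon lengths of GENCODE M21 (GRCm38), and promoters came from RefSeq (GRCm38.p6). Alternatives were DESeq2 1.42.0, its size factors in edgeR, no low-count filter, only the compared groups, and each library left out in turn. Pathway genes were open to naming where called, at 2 CPM or more in the higher group, and among the 4 largest changes of their list, and 3 alike genes per member were named. The members, lists and rules were chosen with earlier results of these data known. Separate cultures are not stated for the libraries of a group, so p-values cover only the spread between libraries, which may be technical. Plots used matplotlib 3.10.9 in Python 3.11.15.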

Additional observations from a re-analysis of the deposited data

Results flagged for a closer look

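The responses of 2 lines differed by a test of the difference itself in 11 cases among the members, given as log2 differences with edgeR adjusted p above. For p65 KO minus WT at 45 min these were Irf1 (-4.58), Irf5 (-1.06) and Irf9 (-0.78), and at 90 min Irf1 (-1.70), Irf2 (-0.49), Irf3 (-0.29) and Irf5 (-1.48). For IKK2 KO minus WT they were Irf1 at 45 min (-3.05) and at 90 min (-1.13). For IKK2 KO minus p65 KO they were Irf1 at 45 min (1.52) and at 90 min (0.57). The Irf3 and Irf9 cases were lost under other settings, and line and genotype cannot be told apart in any of them.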

How the results depend on the processing

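No member reversed direction among its called values. The number of members called after 45 min in WT, 4, was 2 with DESeq2 and 2 to 4 with a library left out, lowest without untreated WT library b or 45 min WT library b. Between 90 and 45 min in WT it was 1 to 2, lowest without 45 min WT library b, and for the 45 min response of IKK2 KO minus WT 1 to 2, highest without untreated WT library a. Over the members' comparisons, DESeq2 left 85 on the same side of the threshold and lost 6 calls, its size factors in edgeR and no filter each left 107 and lost 1, the compared groups alone left 87 and lost 1, and the left-out libraries left 550, lost 25 and added 1. These totals differ because a member with no adjusted p in a setting was left out, such as Irf7 after 45 min in WT in DESeq2 and in the compared groups alone. No paired analysis was possible because the columns carry no replicate number of the labels. Over all genes DESeq2 called fewer: in WT 1114 against 1988 at 45 min, 844 against 1521 at 90 min and 1289 against 2334 between 90 and 45 min; in p65 KO 155 against 271, 435 against 1058 and 174 against 445; in IKK2 KO 811 against 1430, 408 against 732 and 1536 against 2566. For differences between responses it called 691 against 1156 and 489 against 880 (p65 KO minus WT, 45 and 90 min), 467 against 794 and 210 against 384 (IKK2 KO minus WT), and 524 against 965 and 142 against 273 (IKK2 KO minus p65 KO), where left-out libraries gave 615 to 881 and 126 to 195, and 581 to 777 for p65 KO minus WT at 90 min. The compared groups alone gave 533 against 271 in p65 KO at 45 min. With a library left out the counts were 97 to 186, 452 to 572 and 164 to 226 in p65 KO, and 901 to 1179 at 45 min and 391 to 512 at 90 min in IKK2 KO. Depth limits Irf7 and the IKK2 KO values of Irf5, with at most 13 and 12 counts a library.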
